A study of Mus musculus with 10 samples.

Results

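The genes described here are 10 genes of the paraxial mesoderm and of its segmentation into somites: Tbx6, Msgn1, Hes7, Lfng, Dll3, Mesp2, Meox1, Tcf15, Pax3 and Cdx2. They were chosen by name, and all 10 were found among the 21868 genes of the deposited count table. RNA-seq compared mouse cells carrying the genotype Ldb1-/- (KO) with Ldb1+/+ cells (WT). Both were grown from embryonic stem (ES) cells as embryoid bodies, in serum medium without leukaemia inhibitory factor, and sorted for Flk1 (gene Kdr), a VEGF receptor of blood and endothelial progenitors. Ldb1 has no DNA-binding domain of its own and bridges LIM-domain proteins to transcription factors. Neither the day of culture at which RNA was taken nor the number of ES lines behind each genotype is given in the sources used here, so loss of Ldb1 and any other difference between the lines cannot be told apart. In bulk RNA of this kind, fewer cells of a type and less RNA per cell cannot be told apart either.

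Paraxial mesoderm lies on either side of the neural tube and is laid down from the primitive streak and tail bud as presomitic mesoderm. In mouse, the T-box factor Tbx6 and the basic helix-loop-helix factor Msgn1 give presomitic mesoderm its identity, and a clock of Notch, Wnt and FGF signalling, with Hes7 and Lfng as oscillating components and Dll3 as a divergent Notch ligand, times the cutting of somites. Mesp2 sets the boundary of each new somite, and Meox1, Tcf15 and Pax3 mark the somites that form. Cdx2 patterns the posterior embryo. Several of these genes also work elsewhere, such as Pax3 in the dorsal neural tube and neural crest and Cdx2 in trophoblast.

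Start-site sequences are shown for 3 members that moved in unlike ways in the counts: Lfng, the member with the highest level in KO cells relative to WT cells, and Dll3 and Mesp2, which were highest in a single WT sample. RefSeq windows of the assembly GRCm38.p6 matched 7 of the 10 members by symbol, and the 250 bases before the start site are printed 5′ to 3′ on the strand of the gene. Capitals mark matches, on either strand, to the E-box CANNTG, which basic helix-loop-helix factors bind, and to TGGGAA, the core bound by RBPJ, the DNA-binding factor of Notch signalling.
Lfng, chr5:140607091-140607340, plus strand: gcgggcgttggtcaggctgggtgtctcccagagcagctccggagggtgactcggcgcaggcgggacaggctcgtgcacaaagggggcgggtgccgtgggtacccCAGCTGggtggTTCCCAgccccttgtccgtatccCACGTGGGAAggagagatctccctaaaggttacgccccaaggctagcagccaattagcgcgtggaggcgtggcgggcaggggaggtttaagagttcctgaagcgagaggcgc
Dll3, chr7:28301786-28302035, minus strand: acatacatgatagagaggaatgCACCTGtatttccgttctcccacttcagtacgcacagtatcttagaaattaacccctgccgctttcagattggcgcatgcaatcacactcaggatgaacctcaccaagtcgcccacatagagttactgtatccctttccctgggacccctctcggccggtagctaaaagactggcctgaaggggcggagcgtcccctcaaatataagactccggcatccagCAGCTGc
Mesp2, chr7:79810477-79810726, plus strand: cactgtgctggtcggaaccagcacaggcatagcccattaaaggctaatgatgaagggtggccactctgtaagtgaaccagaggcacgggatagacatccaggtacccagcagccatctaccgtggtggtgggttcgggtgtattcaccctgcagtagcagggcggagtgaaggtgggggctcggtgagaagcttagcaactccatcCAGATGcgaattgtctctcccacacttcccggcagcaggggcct
The Lfng window held 2 E-boxes and 2 RBPJ cores, and its E-box CACGTG shared bases with the core that begins 108 bases before the start site, as CACGTGGGAA. Of all 32851 windows in the table, 66.2% held an E-box, 21.6% an RBPJ core, 2.77% at least 2 RBPJ cores and 0.0731% the joined letters, which were looked for after the Lfng window had been read. Among the 7 members with a window, 6 held an E-box and 3 an RBPJ core (Lfng, Hes7 and Msgn1). The T-box core GTGTGA, searched on both strands, was in 12.3% of all windows and in 1 member window, that of Dll3, 146 bases before the start site. The core GATA, searched likewise because GATA factors share complexes with Ldb1, was in 53.6% of all windows and in 6 of the 7 member windows. These are matches of letters, and binding was not measured by them.

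The labels give 4 RNA libraries per genotype. Within a genotype, the counts of libraries 1 and 2 agreed almost to sampling noise, and so did those of 3 and 4. They were summed as sample A for the pair 1 and 2 and as sample B for the pair 3 and 4, n = 2 per genotype. Total counts were 22674679 and 26775787 for KO A and B and 23182551 and 26221496 for WT A and B. The labels do not say whether A and B are separate cultures, and p-values therefore measure only the spread between A and B, which may be technical. Ldb1 itself stood at 96.1 and 80.1 CPM (normalised counts per 1000000) in KO A and B, against 104.8 and 113 CPM in WT A and B, and reads outside a deleted part do not check the genotype. The sorted marker Kdr had 235.8 and 78.6 CPM in KO A and B, against 439.5 and 604.7 CPM in WT A and B.

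All of these genes were expressed at a low level. The 8 that passed the filter on low counts had a median of 2.05 CPM over samples, against 19.7 CPM over all 16785 genes tested, and each of the 8 lay below that value. Msgn1 and Hes7 did not pass the filter and got no test. Per kilobase of the authors' transcript length, averaged over the 4 samples, Lfng stood highest at 3.17 CPM per kb, followed by Mesp2 (2.84), Dll3 (2.39), Tcf15 (2.37), Tbx6 (1.06), Pax3 (0.391), Cdx2 (0.335), Meox1 (0.265), Hes7 (0.257) and Msgn1 (0.133). The ranges over samples of Lfng, Mesp2, Dll3 and Tcf15 overlap, as do those of the 5 lowest genes. Which gene led also changed with the sample. Lfng was highest in KO A and KO B at 3.69 and 4.79 CPM per kb, whereas Tcf15 was highest in WT A at 4.30 CPM per kb and Dll3 in WT B at 6.22 CPM per kb.

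**Figure D1:**
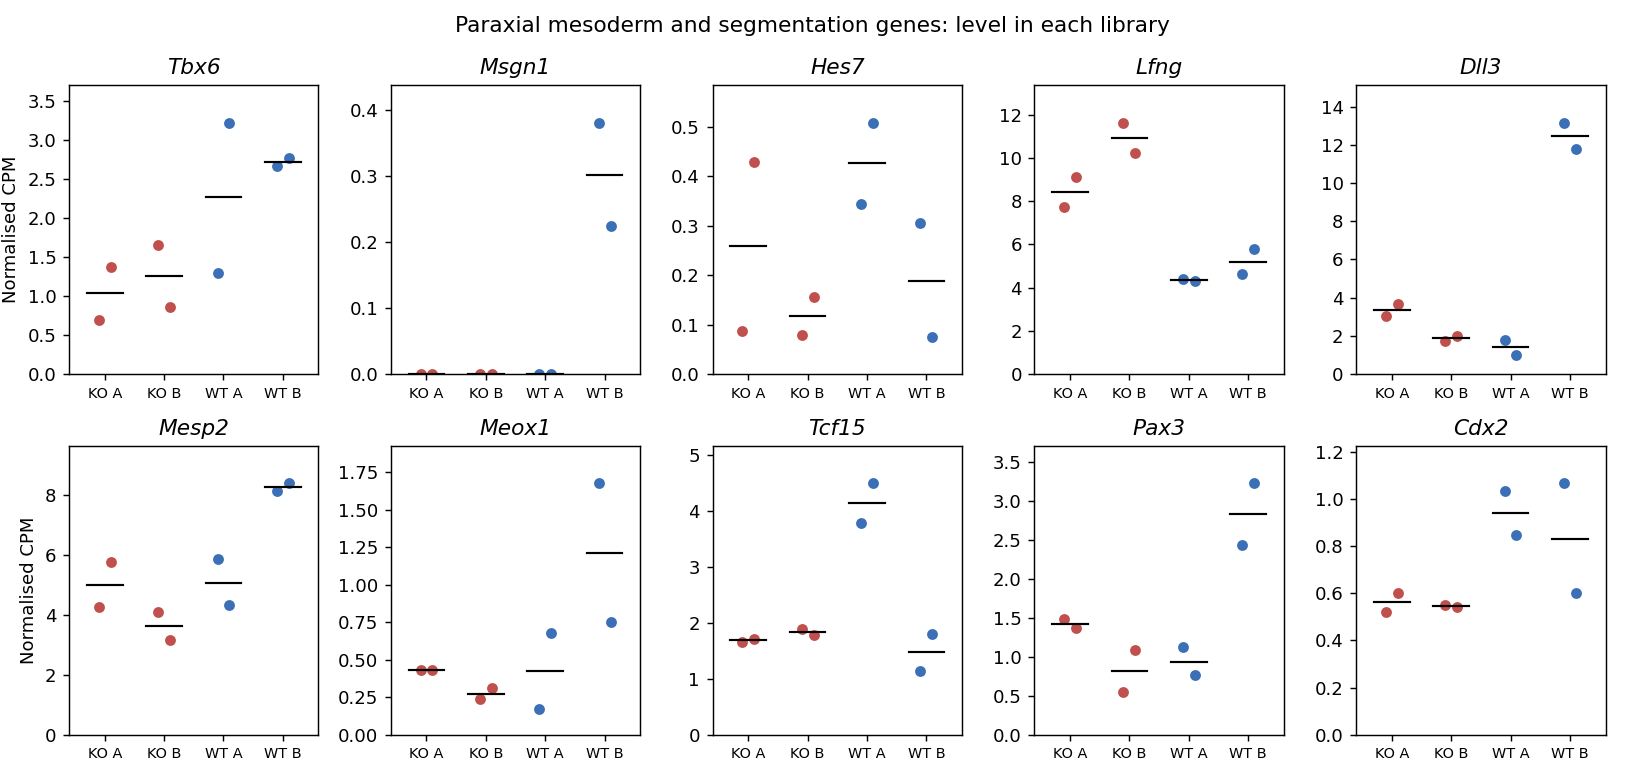
Normalised CPM (vertical axes, each from 0) of the 10 genes in the 4 KO libraries (red) and the 4 WT libraries (blue); bars are the values of the summed samples A and B. Lfng is higher in every KO library than in any WT library, while Dll3 reaches 12.4 CPM in WT B and no more than 3.37 CPM in the other samples.

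Setting KO against WT asks which of these genes differ between the genotypes, whatever the cause. None of the 8 tested genes passed the edgeR quasi-likelihood test at an adjusted p of 0.05, which called 0.185% of all genes tested, 0.0596% as higher and 0.125% as lower in KO. With the 8 libraries fitted separately, which treats near-copies as independent, Lfng and Tbx6 passed, where 24.8% of genes did (21.9% with a replicate block). At an unadjusted p under 0.05 there were 1 higher gene in KO, Lfng, and 1 lower, Tbx6, against 7.61% and 7.86% of all genes. The log2 fold change was below 0 for 7 of the 8 genes, against 51.3% of all genes, and its median was -0.71 against -0.01 over all genes. Both KO samples lay below both WT samples for 3 genes, Tbx6, Mesp2 and Cdx2 (22.4% of all genes), and above them for 1, Lfng (23.2% of all genes).

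Among the presomitic factors, Tbx6 had 0.696, 1.37, 1.65 and 0.852 CPM in KO libraries 1 to 4. The WT libraries 1 and 2 stood at 1.29 and 3.22 CPM and WT libraries 3 and 4 at 2.66 and 2.77 CPM. The genotypes overlapped by library through WT library 1, and they did not overlap by sample. The sample means were 1.14 ± 0.150 CPM in KO and 2.49 ± 0.322 CPM in WT (SD, n = 2 each), a log2 fold change of -1.12 (SE 0.33, edgeR adjusted p = 0.200). The low value of WT library 1 rests on 15 reads against 38 in WT library 2, a difference with a chi-square of 9.60 that 0.364% of genes with at least 20 reads in this pair reached or passed.

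Msgn1, which acts beside Tbx6 in presomitic mesoderm, had 0 reads in all 4 KO libraries. It also had 0 reads in WT libraries 1 and 2, against 5 and 3 reads in WT libraries 3 and 4. Taking 3 counts per sample as the floor, a count of 0 allows up to 0.130 CPM in KO A, 0.117 CPM in KO B and 0.128 CPM in WT A, beside 0.302 CPM in WT B. The exact 95% lower limit of the ratio of WT B over WT A was 1.51, which covers counting error only.

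Of the clock genes, Lfng was the member that stood higher in KO. Lfng encodes a glycosyltransferase that modifies Notch receptors. It had 7.74, 9.095, 11.6 and 10.2 CPM in KO libraries 1 to 4, against 4.39 and 4.32 CPM in WT libraries 1 and 2 and 4.64 and 5.77 CPM in WT libraries 3 and 4. Every KO library lay above every WT library, and WT A and WT B were close to each other. Sample means were 9.67 ± 1.77 CPM in KO and 4.78 ± 0.604 CPM in WT (SD, n = 2 each), a log2 fold change of 1.02 (SE 0.26, edgeR adjusted p = 0.167). DESeq2, which called 6.96% of genes, called Lfng (adjusted p = 0.0491); the adjusted p over all alternatives ran from 0.00223 to 0.822. The edgeR fit without WT sample B gave an adjusted p of 0.0396 with 9.73% of genes called, but it holds 1 WT sample, takes its spread from the KO samples alone and assumes that the lone WT sample varies like them.

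Dll3, a Notch ligand that acts inside the cell, separated the WT samples more than the genotypes. It had 3.04, 3.69, 1.73 and 2.01 CPM in KO libraries 1 to 4. WT libraries 1 and 2 stood at 1.81 and 1.02 CPM and WT libraries 3 and 4 at 13.2 and 11.8 CPM. Both KO samples lay between the WT samples, nearer to WT A than to WT B. The log2 fold change of KO over WT was -1.41 with an SE of 1.08 (edgeR adjusted p = 0.646). Without WT sample A it was -2.26 (edgeR adjusted p = 0.00149, 8.93% of genes called), and without WT sample B it was 0.89 (adjusted p = 0.306); over all alternatives the adjusted p ran from 0.00149 to 0.967. Both of these fits hold 1 WT sample, whose spread is assumed to be that of the KO samples, so neither value measures the spread among WT samples. Hes7, the oscillating repressor of the clock, had between 1 and 6 reads in every library, 9 in all in KO and 15 in all in WT. A genotype difference of Hes7 was not tested at this depth, and its gene model overlaps those of 9130213A22Rik and the transfer RNA gene n-TRtct4, so its few reads are uncertain.

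Mesp2, a basic helix-loop-helix factor of the somite boundary, had 4.26, 5.75, 4.09 and 3.18 CPM in KO libraries 1 to 4. WT libraries 1 and 2 had 5.85 and 4.32 CPM, within or just above that range, while WT libraries 3 and 4 were higher than every other library at 8.14 and 8.39 CPM. Sample means were 4.32 ± 0.977 CPM in KO and 6.67 ± 2.25 CPM in WT (SD, n = 2 each), with KO A at 5.01 CPM close under WT A at 5.08 CPM. The difference was a log2 fold change of -0.63 (SE 0.35, edgeR adjusted p = 0.484), and -0.23 with WT B left out.

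The 3 somite genes did not share a pattern. Meox1, a homeobox factor of early somites, had between 3 and 5 reads in each KO library, 2 and 8 reads in WT libraries 1 and 2, and 22 and 10 reads in WT libraries 3 and 4. Its log2 fold change of KO over WT was -1.22 (SE 0.65, edgeR adjusted p = 0.461). It was -0.28 with WT B left out and -0.68 with only WT library 3 left out. Pax3, a paired-box factor of the dermomyotome and dorsal neural tube, stood at 1.43 and 0.820 CPM in KO A and B, against 0.939 CPM in WT A and 2.83 CPM in WT B. As with Dll3, the KO samples of Pax3 lay near WT A and well under WT B (log2 fold change -0.76, SE 0.62, edgeR adjusted p = 0.662). Tcf15, a basic helix-loop-helix factor that somites need to become epithelial, ran the other way between the WT samples, with 1.68 and 1.83 CPM in KO A and B, 4.14 CPM in WT A and 1.47 CPM in WT B. Its fold change was -0.67 on the log2 scale (SE 0.54, edgeR adjusted p = 0.653), and it was 0.25 without WT sample A, where the WT sample left was the low one. Pax3 likewise stood at 0.25 without WT sample B.

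The posterior homeobox gene Cdx2 was low and differed little between samples of a genotype. It had 6, 7, 7 and 7 reads in KO libraries 1 to 4, against 12 and 10 reads in WT libraries 1 and 2 and 14 and 8 reads in WT libraries 3 and 4. Every WT library held more reads than any KO library, though per depth KO library 2 matched WT library 4 (0.601 and 0.599 CPM). Sample means were 0.554 ± 0.0108 CPM in KO and 0.885 ± 0.0769 CPM in WT (SD, n = 2 each), and the log2 fold change of -0.67 (SE 0.39) did not pass (edgeR adjusted p = 0.503). Cdx2 is also a trophoblast gene. The summed level of 13 trophoblast markers was 1914 and 2647 CPM in KO A and B, against 1075 and 1411 CPM in WT A and B. It was carried mostly by the keratins Krt8 and Krt18 and does not stand for the whole list. Of the 11 tested, keratins included, 6 had a log2 fold change above 0 and 5 below. Hand1 had 6.87 and 6.36 CPM in KO A and B, against 9.90 and 125.7 CPM in WT A and B. Esrrb had 60.8 and 91.1 CPM in KO A and B, against 231.8 and 25.2 CPM in WT A and B. The trophoblast transcription factor gene Elf5 had no more than 4 reads in any library. Eomes was at 27.8 and 8.94 CPM in KO A and B, against 9.65 and 116.5 CPM in WT A and B. Tfap2c was at 12.3 and 25.9 CPM in KO A and B, against 31.6 and 7.51 CPM in WT A and B. Gata3 was at 17.8 and 20.3 CPM in KO A and B, against 13.2 and 19.5 CPM in WT A and B, and Tead4 lay between 16.3 and 27.4 CPM in the 4 samples. The placental gene Tpbpa had 2, 3, 9 and 6 reads in KO libraries 1 to 4 and 0 in every WT library. The part of trophoblast cells in the Cdx2 values was not tested.

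**Figure D2:**
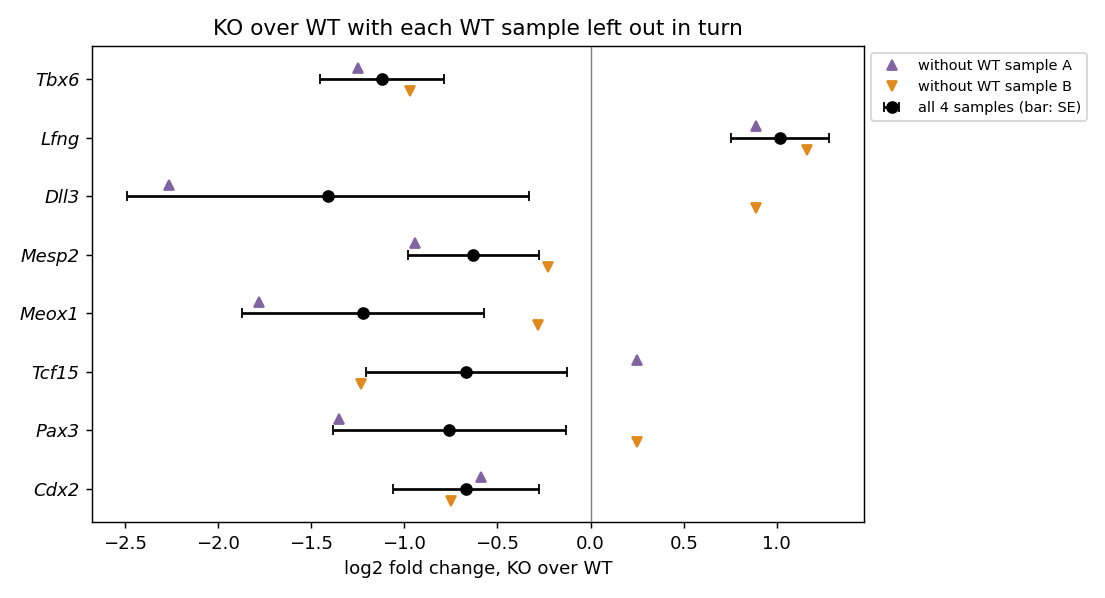
Log2 fold change of KO over WT (horizontal axis) for the 8 tested genes, with all 4 samples (circles, bars are SE) and with WT sample A (upward triangles) or WT sample B (downward triangles) left out. Lfng stays above 0 and Tbx6, Mesp2, Meox1 and Cdx2 below 0 in all 3 fits, with Meox1 at -0.28 and Mesp2 at -0.23 without WT B, while Dll3 and Pax3 change sign without WT B and Tcf15 without WT A.

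The 2 WT samples were then set side by side. With 1 summed sample on each side there is no test, and the 95% exact intervals below cover counting error between these libraries. Of the 8 tested genes, 3 were at least 2-fold higher in WT B than in WT A, against 4.0% of all genes, and 1 was at least 2-fold lower, against 6.2% of all genes. Dll3 was 8.84-fold higher in WT B (interval 6.17 to 13.1), Pax3 3.01-fold (1.85 to 5.09) and Meox1 2.83-fold (1.36 to 6.45). Mesp2 was 1.63-fold higher (1.30 to 2.05). The ratios of Tbx6 (1.201, interval 0.831 to 1.75), Lfng (1.196, interval 0.919 to 1.56) and Cdx2 (0.884, interval 0.467 to 1.67) had intervals that include equality. Tcf15 alone among the 8 was at least 2-fold lower in WT B, by a ratio of 0.355 (0.239 to 0.520). WT B was the highest of the 4 samples for 5 of the 8 genes, Tbx6, Dll3, Mesp2, Meox1 and Pax3, against 24.6% of all genes. The summed level of the 10 genes was 35.5 CPM in WT B, of which Dll3 gave 35.1%, against 19.97 CPM in WT A and 22.2 and 21.3 CPM in KO A and B.

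For these 8 genes, the KO samples did not repeat this split. In KO B relative to KO A, 0 of the 8 genes were at least 2-fold higher (1.73% of all genes) and 0 were at least 2-fold lower (2.65% of all genes). Dll3 and Mesp2, which were higher in WT B than in WT A, were lower in KO B than in KO A, with ratios of 0.556 (interval 0.380 to 0.807) and 0.724 (0.545 to 0.960). Pax3 and Meox1 had ratios of 0.575 (0.316 to 1.02) and 0.632 (0.204 to 1.84), and Tcf15 one of 1.09 (0.697 to 1.71). Lfng was 1.30-fold higher in KO B (1.08 to 1.56). Samples A and B of WT and of KO share only library numbers, so the unlike split between the genotypes is a description with no test.

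**Figure D3:**
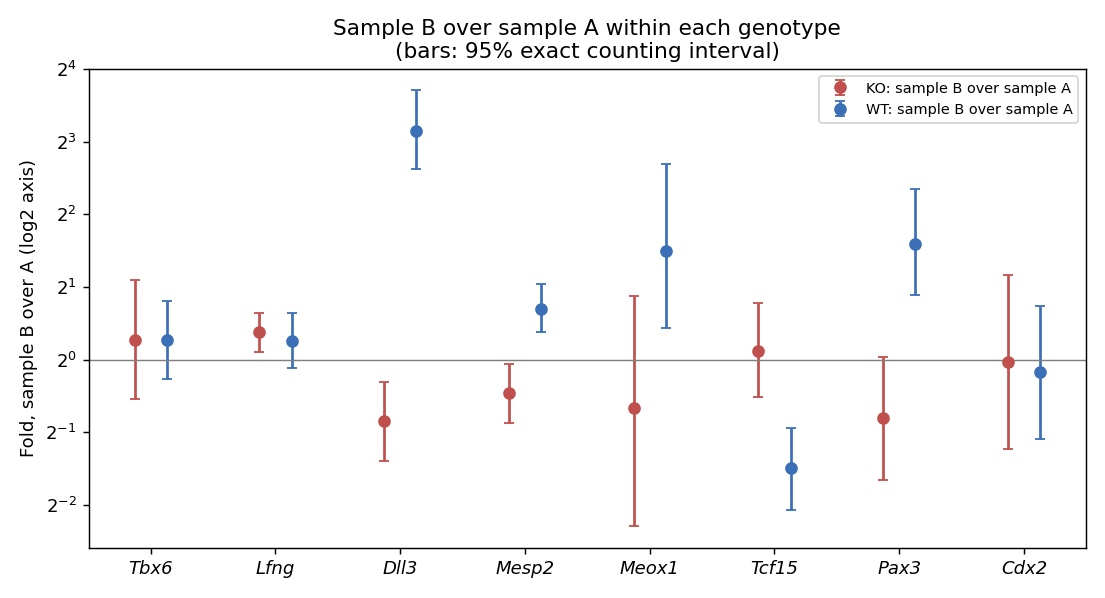
Fold of sample B over sample A (vertical log2 axis) within KO (red) and within WT (blue) for the 8 tested genes, with 95% exact counting intervals. Dll3, Mesp2, Meox1 and Pax3 lie above 1 in WT and below 1 in KO, Tcf15 lies below 1 in WT, and Tbx6 and Lfng have nearly the same ratio in both genotypes.

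Other genes of the same pathway were read from lists drawn up by role. Over all genes, 7.61% were higher and 7.86% lower in KO at an unadjusted edgeR p under 0.05. At an adjusted p of 0.05, edgeR called 0.185% of all genes and DESeq2 6.96%. Between the WT samples, 4.0% of all genes were at least 2-fold higher in WT B and 6.2% lower. These shares hold for every list below, and a count near its share is no result about the list. In the list of posterior and presomitic genes, 0 of 17 tested passed for KO over WT in either direction by edgeR, with 2 higher and 1 lower at an unadjusted p under 0.05, and the median log2 fold change was -0.43. DESeq2 called 1 higher gene in it, Gdf11, a posterior growth factor. Between the WT samples, 8 of the 17 were at least 2-fold higher in WT B and 2 lower. The 2 lower genes were Fgf4 and Fgf17. Fgf4 had 26.2 and 31.9 CPM in KO A and B, against 72.0 and 8.11 CPM in WT A and B. Fgf17 had 3.46 and 9.68 CPM in KO A and B, against 2.22 and 0.679 CPM in WT A and B. In KO B relative to KO A, 2 of the 17 were at least 2-fold higher and 5 lower, against 1.73% and 2.65% of all genes. T, the T-box factor brachyury of the streak and tail bud, had 7.95 and 1.44 CPM in KO A and B, with 12.6 CPM in WT B and 0.896 CPM in WT A, and Evx1, a posterior streak homeobox gene, had 1.55 and 0.390 CPM in KO A and B, with 22.5 CPM in WT B and 0.555 CPM in WT A. The retinoic acid-degrading enzyme gene Cyp26a1 was 6.50-fold higher and the Wnt enhancer gene Rspo3 3.71-fold higher in WT B than in WT A. Both stood lower in KO than in WT, at log2 fold changes of -2.60 (SE 1.07, edgeR adjusted p = 0.375) and -2.99 (SE 0.85, edgeR adjusted p = 0.231), without passing.

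The list of clock genes of the Notch, Wnt and FGF pathways also had 0 of 26 past the edgeR test, with 3 higher and 5 lower at an unadjusted p under 0.05 and a median log2 fold change of -0.34. DESeq2 called 6, with 2 higher (the FGF feedback phosphatase gene Dusp6 and the Wnt cofactor gene Bcl9l) and 4 lower (Mfng, Rfng, Hey1 and Tcf7) in KO. Mfng, the fringe relative of Lfng, did not follow it: Mfng had 7.43 and 2.69 CPM in KO A and B, against 36.9 and 14.4 CPM in WT A and B (log2 fold change -2.34, SE 0.71, edgeR adjusted p = 0.246). The third fringe gene, Rfng, had 21.8 and 25.5 CPM in KO A and B, against 34.5 and 37.4 CPM in WT A and B, so that of the fringe genes Lfng alone stood higher in KO. Dusp6 had 82.9 and 111.6 CPM in KO A and B, against 47.5 and 44.2 CPM in WT A and B (log2 fold change 1.08, SE 0.18, edgeR adjusted p = 0.105). The Notch target Hey1 stood at a log2 fold change of -1.32 (SE 0.37, edgeR adjusted p = 0.188). The Wnt targets Dkk1 and Nkd1 and the transcriptional repressor gene Snai1 were 14.4-fold, 5.20-fold and 11.98-fold higher in WT B than in WT A, and in all 7 of the 26 were at least 2-fold higher and 1 lower.

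Boundary and retinoic acid genes gave 0 of 12 past the edgeR test, with 1 higher and 1 lower at an unadjusted p under 0.05 and a median log2 fold change of -0.29, and DESeq2 called 1, Aldh1a2, as higher. Mesp1, the paralogue and neighbour of Mesp2 that marks early cardiac and cranial mesoderm, had 6, 12, 0 and 3 reads in KO libraries 1 to 4, 3 and 3 reads in WT libraries 1 and 2, and 235 and 256 reads in WT libraries 3 and 4. Its ratio of WT B over WT A was 72.4, beside 1.63 for Mesp2. Pcdh8, the paraxial protocadherin gene, was 11.05-fold higher in WT B. Aldh1a2, which makes retinoic acid, stood higher in KO, with 3.63 and 11.5 CPM in KO A and B, against 0.256 and 1.43 CPM in WT A and B (log2 fold change 3.14, SE 0.98, edgeR adjusted p = 0.246). Of the somite derivative list, 0 of 16 tested passed, with 1 higher and 1 lower at an unadjusted edgeR p under 0.05 and a median of -0.19, and 0 passed with DESeq2. Limma-voom called 0 genes in any of these 4 lists and 0 of the 10. In the somite list, the mesoderm receptor gene Pdgfra was 4.46-fold higher in WT B than in WT A. At least 2-fold higher in WT B were 5 and lower 0 of the 12 boundary genes, and 4 and 1 of the 16 somite genes.

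Markers of other cells differed between the genotypes, between the WT samples and, in some lists, between the KO samples. Of 15 blood and endothelial markers tested, Itga2b and Hba-x fell in KO by edgeR, 14 had a log2 fold change below 0, and the summed level was 720 and 302 CPM in KO A and B, against 1311 and 1219 CPM in WT A and B. These sums include the sorted marker Kdr, at 235.8 and 78.6 CPM in KO A and B, against 439.5 and 604.7 CPM in WT A and B. They also include Cdh5, whose log2 fold change was 0.05, with 181.1 and 62.8 CPM in KO A and B, against 151.3 and 84.3 CPM in WT A and B. Hbb-bh1, the embryonic beta-like globin gene, was at 0 in every KO library. Of 14 primitive streak genes tested, 11 were at least 2-fold higher in WT B and 1, Lefty2, was lower. Their summed level was 256.5 and 238.5 CPM in KO A and B, 526.8 CPM in WT B and 355 CPM in WT A. Lefty2 and Tdgf1 gave most of the sums outside WT B. Lefty2 had 61.0 and 74.3 CPM in KO A and B, 160.1 CPM in WT A and 12.3 CPM in WT B. Tdgf1 had 76.2 and 85.0 CPM in KO A and B, 125.2 CPM in WT A and 115.3 CPM in WT B. Of 12 cardiac and lateral mesoderm genes, 10 were at least 2-fold higher in WT B and 0 lower, with sums of 98.5 and 99.7 CPM in KO A and B, 474.7 CPM in WT B and 80.8 CPM in WT A. Hand1, of lateral and extraembryonic mesoderm, reached 125.7 CPM in WT B, a level above that of any of the 10 genes. Of 15 pluripotency genes, 0 were at least 2-fold higher and 13 lower in WT B, with sums of 1097 and 1392 CPM in KO A and B, 554 CPM in WT B and 2464 CPM in WT A. None of these markers of 4 cell classes was at 0 in all 8 libraries. The KO samples also differed in some of these lists. In KO B relative to KO A, 7 of the 14 streak genes were at least 2-fold lower and 0 higher. For the 15 blood and endothelial genes the counts were 5 lower and 0 higher. They were 1 and 1 for the 12 cardiac genes and 0 and 0 for the 15 pluripotency genes. Over all genes the shares were 2.65% lower and 1.73% higher. The neural crest list, which shares Pax3's other tissue, had 1 gene at least 2-fold higher and 1 lower in WT B among 9 tested, and the neural list 0 higher and 1 lower among 10. For KO over WT, edgeR called 1 of these 10 neural genes as higher and 0 as lower, against 0.0596% and 0.125% of all genes. The part of these cell types in the values of the 10 genes was not tested.

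**Figure D4:**
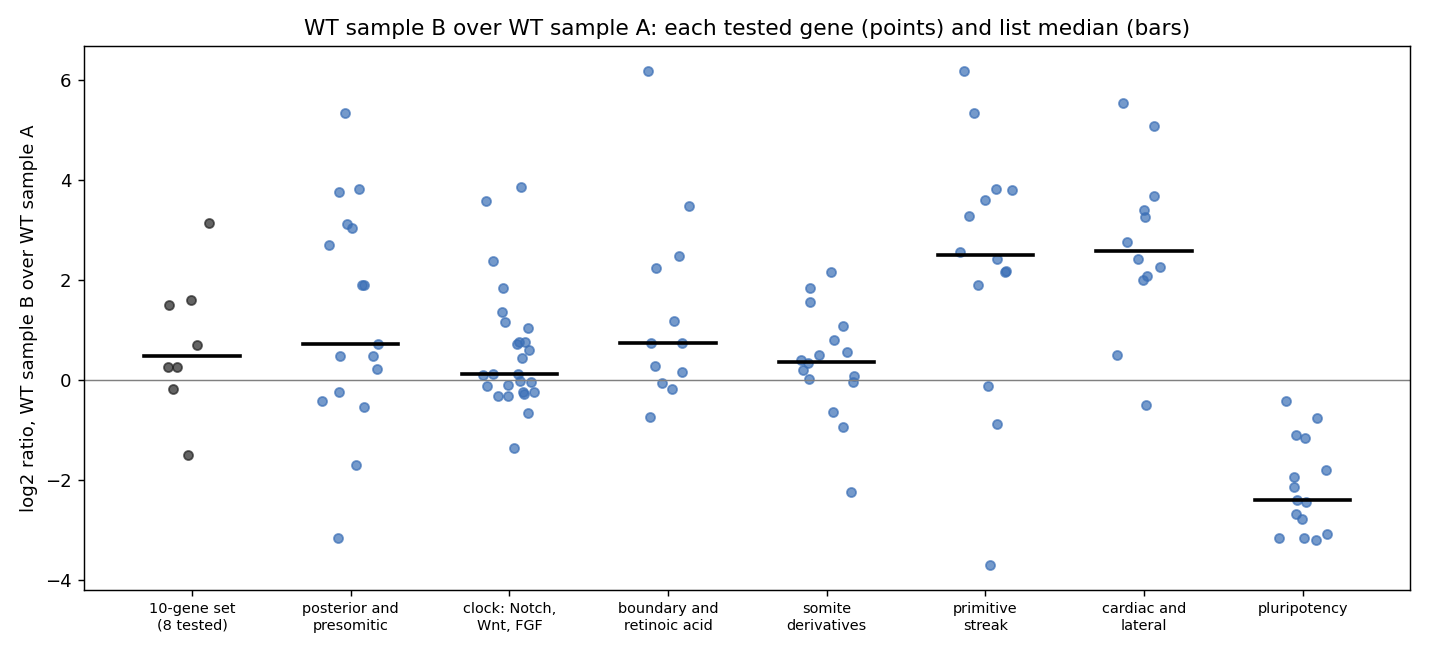
Log2 ratio of WT sample B over WT sample A (vertical axis) for each tested gene of the 10-gene set and of 7 gene lists, with the list medians as bars. The median of the 10-gene set is 0.48, beside 2.49 for primitive streak, 2.58 for cardiac and lateral mesoderm and -2.41 for pluripotency genes.

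Genes with the most similar profiles were taken for 3 members by the smallest Euclidean distance between centred log2 CPM values over the 4 samples. For Tbx6 they were Ifi35, Lix1l, Oxld1, Sfi1 and Gpx3, at distances of 0.020 to 0.146. For Meox1 they were Padi3, Lef1, Rab3il1, Egflam and Cxxc4, at 0.077 to 0.163, among them Lef1, a Wnt effector with 17.2 and 11.4 CPM in KO A and B, 15.8 CPM in WT A and 40.6 CPM in WT B. For Cdx2 they were Srebf1, Pnpt1, Tmc8, Exosc2 and Gm27509, at 0.038 to 0.066. Within a distance of 0.5 lay 266 genes for Tbx6, 61 for Meox1 and 2688 for Cdx2 of 14728 to 14729 candidates, so 4 samples do not set these neighbours apart from many others.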

How the data were processed

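The authors deposited raw read counts per Ensembl gene for 8 RNA libraries, with a transcript length per gene, per the file headers. The submitters' processing notes name mm9 and DESeq. The aligner, the counter, the strand setting and the annotation are not stated in the sources used here. Of 21868 genes, 20362 were paired with a symbol. A chi-square per gene between libraries averaged 1.065 to 1.101 in the 4 pairs that were summed (1 is sampling noise) and 12.8 to 28.5 in the other 8 pairs within a genotype.

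After filterByExpr and TMM scaling, summed counts were tested over all 16785 genes with the robust edgeR 4.0.16 quasi-likelihood test in R 4.3.3, with Benjamini-Hochberg adjustment. SE is the absolute log2 fold change over the square root of F. For 2 against 2 samples the smallest exact permutation p of a single value is 0.333. The script was tested on simulated data, with changes placed in genes above a mean of 1 CPM and a spread taken from the fitted trend. It recovered 50% of 50 changes of 2-fold and 84% of 50 changes of 4-fold, with 14 false calls among 16785 genes. Alternatives used DESeq2 1.42.0 and limma-voom (limma 3.58.1), other scalings and filters, a replicate block and left-out libraries. Exact intervals and figures used scipy 1.17.1 and matplotlib 3.10.9.

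The 10 genes, the lists and the summing were chosen with earlier results of these data known. From each list, the 3 genes above a mean of 1 CPM with the largest change between genotypes, and likewise between WT samples, were eligible for naming. Genes called by DESeq2 alone, Krt8, Krt18, Elf5, Eomes, Tfap2c, Gata3, Tead4, Tpbpa, Lefty2, Tdgf1, Fgf4, Fgf17 and Cdh5 were chosen after their values were seen. The ChIP-seq peak list was not used here, since no annotation of its build was at hand. The values of 1 gene that the naming rule took are not reported here.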

Additional observations from a re-analysis of the deposited data

How the results depend on the processing

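Each of the 8 tested genes was refitted under 19 to 22 alternatives, 170 values in all. Of these, 160 kept their direction and did not pass, 7 passed and 3 reversed. The 160 include Meox1 and Cdx2 with DESeq2, which gave these genes no adjusted p. The reversed log2 fold changes were Dll3 at 0.89 and Pax3 at 0.25 without WT sample B (-2.26 and -1.35 with WT A left out), and Tcf15 at 0.25 with WT A left out (-1.23 with WT B left out). The number of these genes past an adjusted p of 0.05 was 0 in the edgeR test of 4 samples, 1 with DESeq2, and 2, Lfng and Tbx6, with 8 libraries fitted separately, without or with a replicate block. Fitting libraries separately treats summed pairs as independent. With samples or libraries left out the number was 0 to 1, Dll3 without WT A and Lfng without WT B, fits in which the lone WT sample is assumed to vary like the KO samples, and the median log2 fold change ran from -1.10 to -0.25, against -0.71 with all samples. The number of all genes called was 31, against 1168 with DESeq2, 3 with limma-voom, 151 with no filter, 5 with a filter of 1 CPM in 2 samples, 5 with samples A and B as a replicate block, 2 at an adjusted p of 0.01, 3860 with 8 libraries separately and 3410 with a replicate block on them. It ran from 0 to 1674 with samples or libraries left out, and was 0 without KO A or KO B, where an unadjusted edgeR p under 0.05 was reached by 1704 and 1106 genes. Deviations of same-lettered samples correlated at -0.081 across genes, so the letters were not taken to pair samples. Past 4-fold rather than 2-fold, 1 gene, Dll3, separated WT B from WT A instead of 4, and 3 to 5 did past 2-fold with 1 WT library left out. Depth limits Meox1, Hes7, Msgn1 and Cdx2, which had 59, 24, 8 and 71 reads over the 8 libraries.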
